A study of Homo sapiens with 12 samples.

Results

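The Toll-like receptor genes TLR1, TLR2, TLR3, TLR4 and TLR6, the co-receptor gene CD14, the adaptor genes MYD88 and TICAM1 and the kinase genes IRAK2 and IKBKE were followed in the RNA sequencing of HaCaT keratinocytes. These 10 genes were chosen by name, with earlier results of these data known, and found by their identifiers among the 57370 genes of the count table. HaCaT is an immortalized human keratinocyte line. Lentiviral transduction and puromycin selection had given HaCaT_sh, which carries a small hairpin RNA against IQGAP3 under doxycycline control, and HaCaT_ctrl, which carries a scrambled hairpin. Per the study's methods, doxycycline was added to both lines before the medium was changed to one with doxycycline and cytokines. Whether the groups without cytokines kept doxycycline after that change is not stated. The methods speak of stable clones without saying whether a line came from 1 of them. The groups HaCaT_ctrl+cyto and HaCaT_sh+cyto also received 100 ng/ml of IL-17, 20 ng/ml of IFNγ and 25 ng/ml of TNFα, a mix used to mimic psoriatic inflammation. By the study's methods RNA was isolated after days, not hours, of stimulation, so that a response below is the state at that late time. Each group had 3 libraries, called biological replicates by their labels. P-values measure the spread between these libraries, and nothing states that they came from separate cultures.

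Toll-like receptors are membrane proteins that bind conserved molecules of microbes and damaged cells. TLR2, paired with TLR1 or TLR6, binds lipoproteins at the cell surface, TLR4 binds lipopolysaccharide with the help of CD14 and LY96, and TLR3 binds double-stranded RNA inside endosomes. All of these but TLR3 signal through the adaptor MYD88 and the IRAK kinases to NF-kB, whereas TLR3, and TLR4 from endosomes, use the adaptor TICAM1 (also called TRIF) and the kinases TBK1 and IKBKE to reach interferon regulatory factors. Keratinocytes use these receptors to sense infection and injury of the epidermis.

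The total count per library lay between 13079055 and 17308021, and log2 CPM of libraries of 1 group correlated across genes, which are no replicates, with Pearson's r of 0.987 to 0.996. Chi-square per degree of freedom between the counts of 2 libraries of a group was 1.57 to 5.77 at rest. It was 2.68 to 27.3 with cytokines, where most pairs of libraries lay further apart. Levels below are CPM, counts relative to the size of the library, after TMM scaling over all 12 libraries, and tests are those of edgeR's quasi-likelihood model, where a call needed an adjusted p under 0.01 together with a change of at least 2-fold. IQGAP3, the target of the hairpin, went against its label without cytokines: the libraries labelled HaCaT_ctrl held 75.0, 70.4 and 77.3 CPM and those labelled HaCaT_sh 115, 101 and 98.2 CPM (log2 fold change 0.50, adjusted p = 4.68e-06). With cytokines it was at 3.31 ± 1.23 CPM (mean ± SD, n = 3) in HaCaT_ctrl+cyto and 1.24 ± 0.373 CPM in HaCaT_sh+cyto. Every direction below, between the lines as well as within a line with cytokines, is therefore one between libraries as they were labelled, and the responses set the libraries in doubt against those with cytokines. All 9 keratinocyte markers, among them KRT5, KRT14 and TP63, reached 1 CPM in each group, though some changed with cytokines. In HaCaT_ctrl 2 were called higher and 3 lower, beside 14.7% and 21.1% of all genes tested. In HaCaT_sh 2 were called higher and 2 lower, beside 14.9% and 21.0%. KRT5 went from 3704 ± 58.5 to 73.0 ± 3.79 CPM in HaCaT_ctrl and from 4449 ± 130 to 151 ± 11.3 CPM in HaCaT_sh. LAMB3 went up, from 1057 to 4373 CPM and from 1142 to 5840 CPM. None of 10 myeloid markers reached 1 CPM, and their summed level, between 0.0610 and 0.871 CPM in any library, included PTPRC and CD163. Among 5 lymphocyte markers the sum stayed at or below 0.639 CPM, with no count in either cytokine group. COL1A1 and LUM of 7 fibroblast markers, VWF and CDH5 of 4 endothelial markers and PMEL and MITF of 5 melanocyte markers reached 1 CPM in at least 1 group. LUM had means of 5.05 ± 0.157 and 2.03 ± 0.752 CPM in HaCaT_ctrl and HaCaT_sh, against 1 and 0 counts in all with cytokines. The summed fibroblast markers went from 20.4 to 22.4 CPM without cytokines down to 2.12 to 9.34 CPM with them, the endothelial ones from 16.1 to 30.6 down to 0.378 to 1.89 CPM and the melanocyte ones from 16.6 to 31.3 down to 9.19 to 11.4 CPM, and the part of these genes in the cytokine results was not tested.

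The 4 group comparisons asked how the lines differed at rest, how each line answered the cytokines and how the lines differed under cytokines. At rest, TLR2, TLR4, IRAK2 and IKBKE were lower and CD14 was higher in the libraries labelled HaCaT_sh than in those labelled HaCaT_ctrl. Of the 10 genes, all tested, 4 were called lower and 1 higher, beside 5.07% and 3.80% of the 13719 genes tested. Their median log2 fold change was -0.55, against 0.00 over all genes. In HaCaT_ctrl the cytokines lowered TLR1, TLR2, TLR3, TLR4 and TLR6 and raised TICAM1 and IRAK2. That made 5 of 9 tested genes lower and 2 higher, beside 21.1% and 14.7% of all 13687 genes tested (a split of 2890 to 2017, and of 3495 to 1504 when library size alone set the scale), with a median of -1.13 against -0.03. In HaCaT_sh they lowered TLR3, TLR6 and CD14 and raised TLR4, TICAM1 and IRAK2, 3 of 10 genes each way beside 21.0% and 14.9% of all 13480 (2827 to 2013, and 3419 to 1501 by library size alone), with a median of -0.15 against -0.02. Under cytokines, TLR1 and TLR4 were higher and IRAK2 lower in HaCaT_sh+cyto than in HaCaT_ctrl+cyto, 2 and 1 of 8 genes beside 2.50% and 1.63% of all 12693, with a median of -0.30 against 0.00. A test of the difference between the responses of the lines called TLR1 and TLR4 of 9 genes tested, both higher in HaCaT_sh, beside 1.40% higher and 1.23% lower of all 13296, with a median of 0.61 against 0.00. These comparisons share groups and are not independent of each other. The test needed 1 CPM in 3 of the 6 libraries compared, which some genes reached only in the group where they were high, so that they had to differ: CD14 and IRAK2 at rest, TLR1 and TLR6 with cytokines in HaCaT_ctrl, TLR2, TLR6, CD14 and IRAK2 with cytokines in HaCaT_sh, and TLR1 and TLR2 between the cytokine groups. The genes were also chosen with earlier results of these data known. For both reasons the counts and medians over the genes tested support nothing by themselves. Of the 10 tests entered through 1 group, 8 gave calls, and all 8 calls were also made with no filter.

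**Figure D1:**
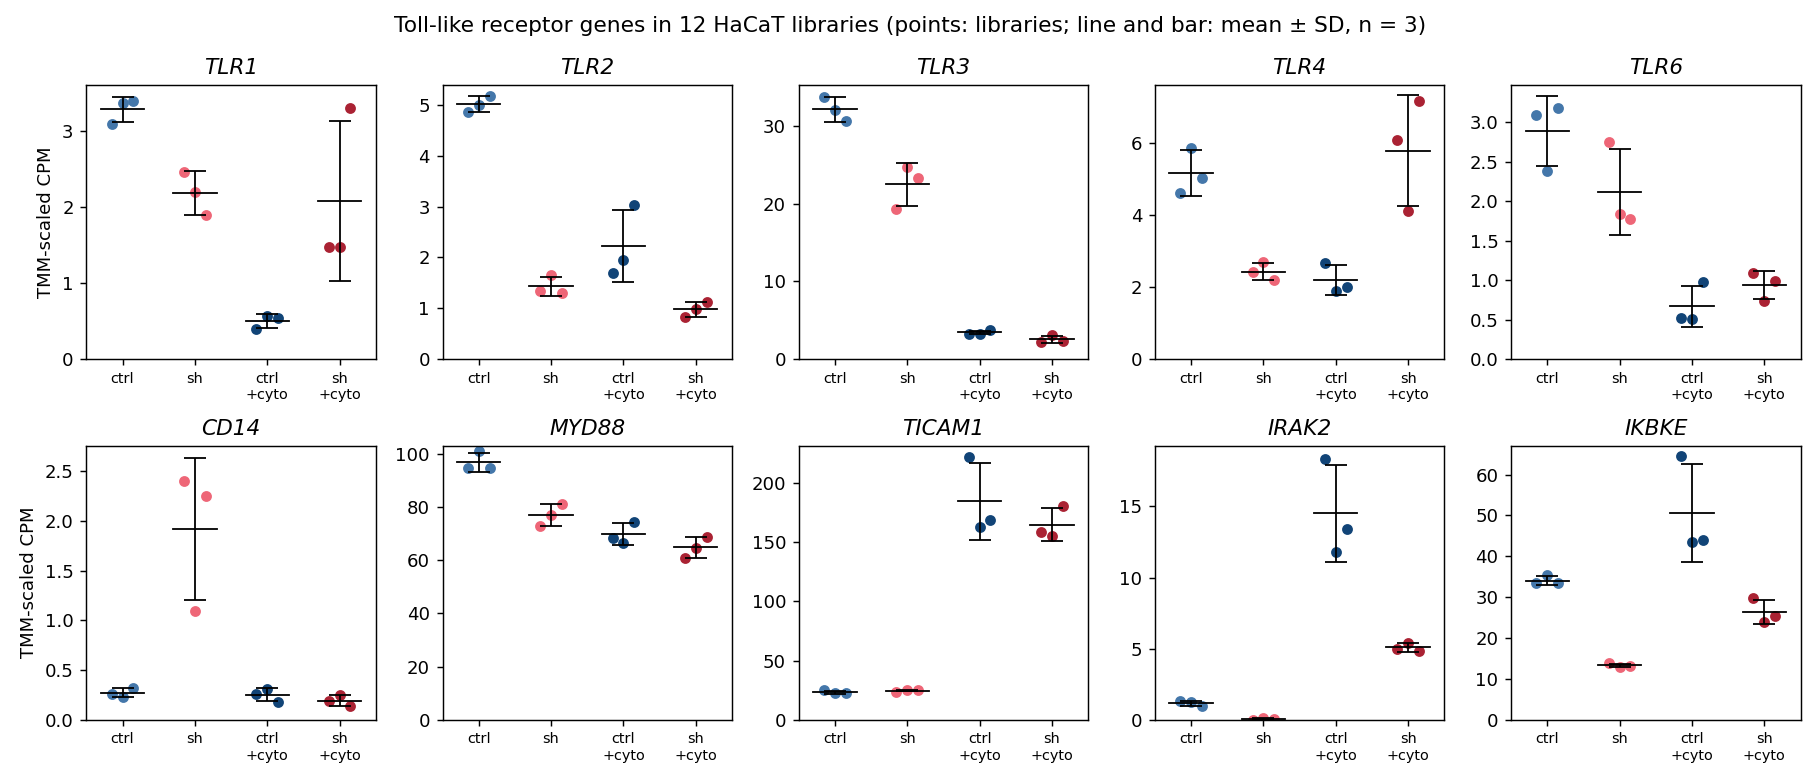
Level of each of the 10 genes in the 12 libraries, in TMM-scaled CPM on linear axes that start at 0, with a panel per gene, points for libraries and lines and bars for the mean ± SD of 3. TLR3 fell to between 2.24 and 3.70 CPM in all 6 libraries with cytokines, TICAM1 rose to at least 155 CPM in all 6, and TLR4 stood at 6.08, 4.11 and 7.16 CPM in HaCaT_sh+cyto.

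Divided by the length of their exons, the genes spanned over 2 orders of magnitude. In HaCaT_ctrl, MYD88 led at 23.1 ± 0.859 CPM per kb (mean ± SD, n = 3), followed by IKBKE at 8.99 ± 0.308 and TICAM1 at 8.72 ± 0.465 CPM per kb, which lay within their spread of each other, and by TLR3 at 4.28 ± 0.207 CPM per kb. The other receptors lay between 0.389 CPM per kb for TLR4 and 0.868 CPM per kb for TLR2, with TLR4 and TLR6 within their spread. CD14 was last at 0.166 ± 0.0282 CPM per kb. TLR3 was thus the receptor of this set with the highest level per length in both lines at rest. With cytokines it stood at 0.456 ± 0.0334 CPM per kb in HaCaT_ctrl+cyto, where TLR2 was at 0.386 ± 0.123, and at 0.338 ± 0.0590 CPM per kb in HaCaT_sh+cyto, below TLR1 at 0.459 ± 0.232 and TLR4 at 0.435 ± 0.117, with overlapping spreads in each case. TICAM1 led all 10 genes with cytokines, at 68.7 ± 12.03 CPM per kb in HaCaT_ctrl+cyto and 61.4 ± 5.16 CPM per kb in HaCaT_sh+cyto. Lengths came from a newer annotation than the counts, and that of TLR4, 13277 bases, is the longest of the set.

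**Figure D2:**
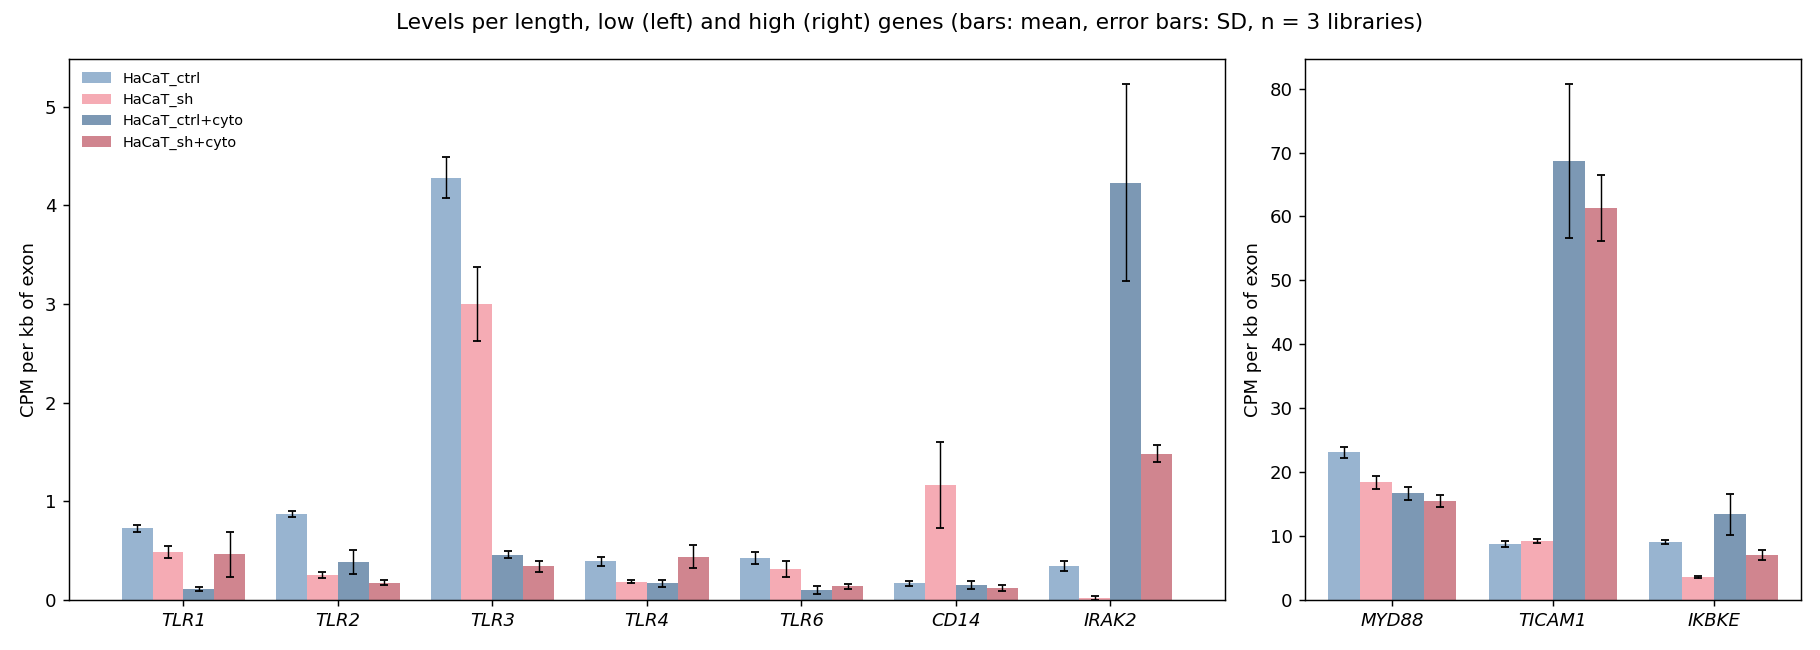
Level per kb of exon of the 10 genes in the 4 groups, in CPM per kb on linear axes from 0 that differ between the left and the right panel, with bars for the mean and error bars for the SD of 3 libraries. TLR3 stood above the other receptors at rest, and TICAM1 reached 68.7 and 61.4 CPM per kb with cytokines.

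TLR3, the endosomal receptor of double-stranded RNA (GRCh37, chr4:186990065-187009227, plus strand), fell with cytokines in both lines. It was at 33.7, 32.0 and 30.6 CPM in HaCaT_ctrl and at 3.27, 3.27 and 3.70 CPM in HaCaT_ctrl+cyto (log2 fold change -3.20, standard error 0.11, adjusted p = 4.25e-09). In HaCaT_sh it was at 19.3, 24.7 and 23.3 CPM, and in HaCaT_sh+cyto at 2.24, 3.04 and 2.32 CPM (log2 fold change -3.15, standard error 0.16, adjusted p = 2.47e-08). Every library with cytokines lay below every library without them. The responses of the lines differed by 0.07 on the log2 scale (standard error 0.21, adjusted p = 0.860), a value that turned negative without HaCaT_sh 1 (-0.04) or without HaCaT_sh+cyto 2 (-0.08). At rest the libraries labelled HaCaT_sh were all below those labelled HaCaT_ctrl, by less than 2-fold (log2 fold change -0.51, standard error 0.0834, adjusted p = 7.88e-05). In bulk RNA, fewer cells with a transcript and less of it per cell cannot be told apart, here and in all results that follow. UNC93B1, which carries TLR3 to endosomes, stood at 96.9 ± 5.03 CPM in HaCaT_ctrl and 54.3 ± 3.25 in HaCaT_ctrl+cyto, and at 63.3 ± 2.80 CPM in HaCaT_sh and 42.1 ± 2.58 in HaCaT_sh+cyto. Its changes were below 2-fold, with log2 fold changes of -0.80 and -0.58.

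The promoter windows of TLR3 and TICAM1 are shown because these genes had, among those without low counts, the largest opposite responses to the mix, and because interferon and TNF act through STAT, IRF and NF-kB factors whose sites have short known forms. The windows, from RefSeq on GRCh38.p14, run from 250 bases before the start through base 6 of the transcript. They lie at chr4:186068906-186069161, plus strand, and chr19:4831707-4831962, minus strand, and capitals mark the motif matches.
TLR3: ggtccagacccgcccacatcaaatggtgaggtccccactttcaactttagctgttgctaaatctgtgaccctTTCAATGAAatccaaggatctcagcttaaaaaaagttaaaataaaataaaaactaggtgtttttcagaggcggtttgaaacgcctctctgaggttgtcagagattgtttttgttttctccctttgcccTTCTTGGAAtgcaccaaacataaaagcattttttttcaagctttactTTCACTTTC
TICAM1: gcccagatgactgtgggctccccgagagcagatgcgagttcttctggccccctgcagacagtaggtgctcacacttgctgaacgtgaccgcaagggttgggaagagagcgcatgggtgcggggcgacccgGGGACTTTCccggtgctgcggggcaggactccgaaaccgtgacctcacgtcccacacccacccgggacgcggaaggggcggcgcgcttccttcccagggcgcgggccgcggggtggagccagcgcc
The TLR3 window held the STAT motif GAS (TTCNNNGAA) at positions -178 to -170 and -50 to -42 from the start, and the core of the interferon-stimulated response element (GAAANNGAA) on the opposite strand at -3 to 6. The TICAM1 window held the core of an NF-kB site (GGGNNTTTC) at -120 to -112. With both strands searched, GAS was in 7.66%, the response element core in 8.11%, the NF-kB core in 4.78% and the AP-1 motif TGANTCA in 7.71% of 35116 RefSeq windows. The search used whole windows, for the set as well. The printed ones were cut after base 6, where the last TLR3 match ends, so the shares are not those of windows cut there. Of the 9 genes with a window in the table, CD14 held GAS and AP-1, MYD88 held GAS and the response element core in overlap, and TLR2, TLR4, TLR6, IRAK2 and IKBKE held none of the 4. TLR1 had no window in the table. A match is only a string of letters, and no binding was measured.

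TLR2, the shared partner of the lipoprotein receptors (GRCh37, chr4:154605222-154627412, plus strand), was the receptor that differed most between the lines at rest. The libraries labelled HaCaT_ctrl held 4.87, 4.99 and 5.18 CPM and those labelled HaCaT_sh 1.34, 1.65 and 1.30 CPM, with no overlap (log2 fold change -1.80, standard error 0.17, adjusted p = 3.30e-07). With cytokines it was at 1.70, 1.95 and 3.04 CPM in HaCaT_ctrl+cyto, all below HaCaT_ctrl (log2 fold change -1.13, standard error 0.21, adjusted p = 5.85e-04). Without HaCaT_ctrl+cyto 1 that log2 fold change was -0.97, short of a 2-fold change. In HaCaT_sh+cyto it was at 0.831, 0.986 and 1.12 CPM, all below the HaCaT_sh libraries, and the change did not pass (log2 fold change -0.54, standard error 0.25, adjusted p = 0.0671). TLR2 entered this test only through HaCaT_sh, so that the groups had to be apart. Under cytokines, TLR2 had a log2 fold change of -1.19 between the lines (standard error 0.31, adjusted p = 0.0194), which was not called. All 3 HaCaT_sh+cyto libraries lay below all 3 HaCaT_ctrl+cyto libraries, which the filter had fixed, since TLR2 entered this test only through HaCaT_ctrl+cyto. The difference was called when no filter was set (adjusted p = 0.00215) or when all 12 libraries entered the fit (adjusted p = 0.00221). The responses of the lines differed by 0.61 (standard error 0.35, adjusted p = 0.237).

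TLR1 and TLR6, the partners of TLR2, are neighbours on the minus strand of chromosome 4 (GRCh37, chr4:38792298-38858438 and chr4:38824518-38858438, overlapping in the annotation used here). Their coding sequences were identical at 77.3% of 2352 aligned bases. The longest stretch that they share is printed because a read that lies wholly within it matches both genes. The paired reads of the study can reach beyond it, and reads that match both genes were not counted here and their handling is not stated, so the counts of these genes are uncertain. It covers bases 1379 to 1596 of the TLR1 and 1394 to 1611 of the TLR6 coding sequence, 218 in all.
TLR1 and TLR6: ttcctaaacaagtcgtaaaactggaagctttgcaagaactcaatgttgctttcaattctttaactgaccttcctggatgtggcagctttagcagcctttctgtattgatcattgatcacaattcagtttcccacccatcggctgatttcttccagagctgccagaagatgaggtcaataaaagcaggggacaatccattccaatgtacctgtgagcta
TLR1 and TLR2 were identical at 54.1% and TLR2 and TLR6 at 55.3% of aligned bases, with no shared stretch over 14.

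TLR1 fell with cytokines in HaCaT_ctrl, and its response differed between the lines. It was at 3.09, 3.37 and 3.40 CPM in HaCaT_ctrl and at 0.392, 0.567 and 0.546 CPM in HaCaT_ctrl+cyto, 168 against 24 counts over the groups (log2 fold change -2.66, standard error 0.23, adjusted p = 2.11e-06). TLR1 entered this test only through HaCaT_ctrl. In the libraries labelled HaCaT_sh it was at 2.46, 2.20 and 1.90 CPM, and in HaCaT_sh+cyto at 1.47, 1.48 and 3.30 CPM, where replicate 3 stood apart and the groups overlapped (log2 fold change -0.06, standard error 0.31, adjusted p = 0.874). Without HaCaT_sh+cyto 3 the latter log2 fold change was -0.56, and over the libraries left out in turn it reached 0.16. The responses differed by 2.62 on the log2 scale (standard error 0.43, adjusted p = 0.00103), and this difference was called in each of 17 alternative settings, at 2.11 to 2.83. TLR1 entered the test between the cytokine groups only through HaCaT_sh+cyto, so that these groups had to be apart. Under cytokines, each HaCaT_sh+cyto library lay above each HaCaT_ctrl+cyto library (log2 fold change 2.04, standard error 0.42, adjusted p = 0.00759). That call was lost without HaCaT_ctrl+cyto 1 (adjusted p = 0.0171), 2 (0.0308) or 3 (0.0248), or without HaCaT_sh+cyto 1 (0.0108) or 3 (0.0142), and with replicate number as a block (0.0102). The log2 fold change ran from 1.54, without HaCaT_sh+cyto 3, to 2.25. At rest the HaCaT_sh libraries were lower by less than 2-fold (log2 fold change -0.58, standard error 0.17, adjusted p = 0.00826).

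TLR6 fell with cytokines in both lines. It was at 3.09, 2.38 and 3.18 CPM in HaCaT_ctrl and at 0.523, 0.504 and 0.971 CPM in HaCaT_ctrl+cyto (log2 fold change -2.06, standard error 0.28, adjusted p = 6.22e-05). The values in HaCaT_sh were 2.74, 1.83 and 1.78 CPM and those in HaCaT_sh+cyto 1.09, 0.739 and 0.983 CPM (log2 fold change -1.15, standard error 0.27, adjusted p = 0.00275). The groups with and without cytokines did not overlap in either line, but TLR6 entered both tests only through the group at rest, so that they had to be apart. The call in HaCaT_sh was lost without HaCaT_sh 1, at a log2 fold change of -0.91 (adjusted p = 0.0120). The difference between the responses was 0.93 (standard error 0.42, adjusted p = 0.139). TLR6 was too low for the test between the cytokine groups, with 32 and 40 counts.

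TLR4, the lipopolysaccharide receptor (GRCh37, chr9:120466453-120487013, plus strand), moved in opposite directions with cytokines in the lines, as the libraries were labelled. It was at 4.60, 5.86 and 5.01 CPM in HaCaT_ctrl and at 2.68, 1.89 and 2.00 CPM in HaCaT_ctrl+cyto, a fall with no overlap (log2 fold change -1.21, standard error 0.19, adjusted p = 1.78e-04). In the libraries labelled HaCaT_sh it was at 2.41, 2.69 and 2.19 CPM, and in HaCaT_sh+cyto at 6.08, 4.11 and 7.16 CPM, a rise with no overlap (log2 fold change 1.27, standard error 0.22, adjusted p = 2.70e-04). The responses differed by 2.50 on the log2 scale (standard error 0.30, adjusted p = 9.44e-05), and 17 of 17 alternative settings called it, at 2.31 to 2.67. At rest TLR4 was lower in HaCaT_sh (log2 fold change -1.09, standard error 0.16, adjusted p = 3.20e-05). Without HaCaT_ctrl 2 that log2 fold change was -0.99, short of a 2-fold change. Under cytokines it was higher in HaCaT_sh+cyto, with no overlap (log2 fold change 1.41, standard error 0.25, adjusted p = 0.00390). This call was lost without HaCaT_ctrl+cyto 2 (adjusted p = 0.0245) or 3 (0.0162) and without HaCaT_sh+cyto 1 (0.0178) or 3 (0.0129), at log2 fold changes of 1.23 to 1.38. By the labels HaCaT_ctrl was above HaCaT_sh at rest and HaCaT_sh+cyto above HaCaT_ctrl+cyto. This crossing and the opposite movement rest on the labels of the libraries at rest, which IQGAP3 went against. HaCaT_sh, at 2.43 ± 0.248 CPM, and HaCaT_ctrl+cyto, at 2.19 ± 0.427 CPM, lay within their spread of each other, as did HaCaT_ctrl, at 5.16 ± 0.642 CPM, and HaCaT_sh+cyto, at 5.78 ± 1.55 CPM.

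CD14, which hands lipopolysaccharide to TLR4 and its partner LY96 (GRCh37, chr5:140011313-140013285, minus strand), was detected mainly in HaCaT_sh at rest. It was at 2.41, 1.10 and 2.25 CPM there and at 0.263, 0.232 and 0.324 CPM in HaCaT_ctrl, or 99 against 14 counts over the groups (log2 fold change 2.79, standard error 0.39, adjusted p = 1.72e-05). CD14 entered this test, and the next, only through HaCaT_sh. With cytokines, HaCaT_sh+cyto stood at 0.192, 0.246 and 0.140 CPM, or 8 counts, a fall with no overlap (log2 fold change -3.28, standard error 0.46, adjusted p = 6.57e-05). HaCaT_ctrl+cyto held 12 counts, at 0.261, 0.315 and 0.182 CPM, close to HaCaT_ctrl and too low for a test. The ratio of HaCaT_sh to HaCaT_sh+cyto, 10.2, had a 95% counting interval of 4.97 to 24.2, which covers counting error only. CD14 is also a marker of monocytes. In HaCaT_sh 7 of the 10 myeloid markers had no count, and the sum of the others was 0.0610 to 0.296 CPM, against 0.395 to 0.871 CPM in HaCaT_ctrl. CSF1R, with 7 counts in HaCaT_sh against 3 in HaCaT_ctrl, and CD163, with 2 against 0, went the other way. The source of CD14 was not tested. LY96, the partner of TLR4, had 5 counts in HaCaT_ctrl and 131 in HaCaT_ctrl+cyto (log2 fold change 4.73, standard error 0.45, adjusted p = 4.38e-06). LY96 entered this test only through HaCaT_ctrl+cyto. In the other line it had 9 and 58 counts, a ratio of 7.83 (95% counting interval 3.85 to 18.0), and was too low for a test.

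**Figure D3:**
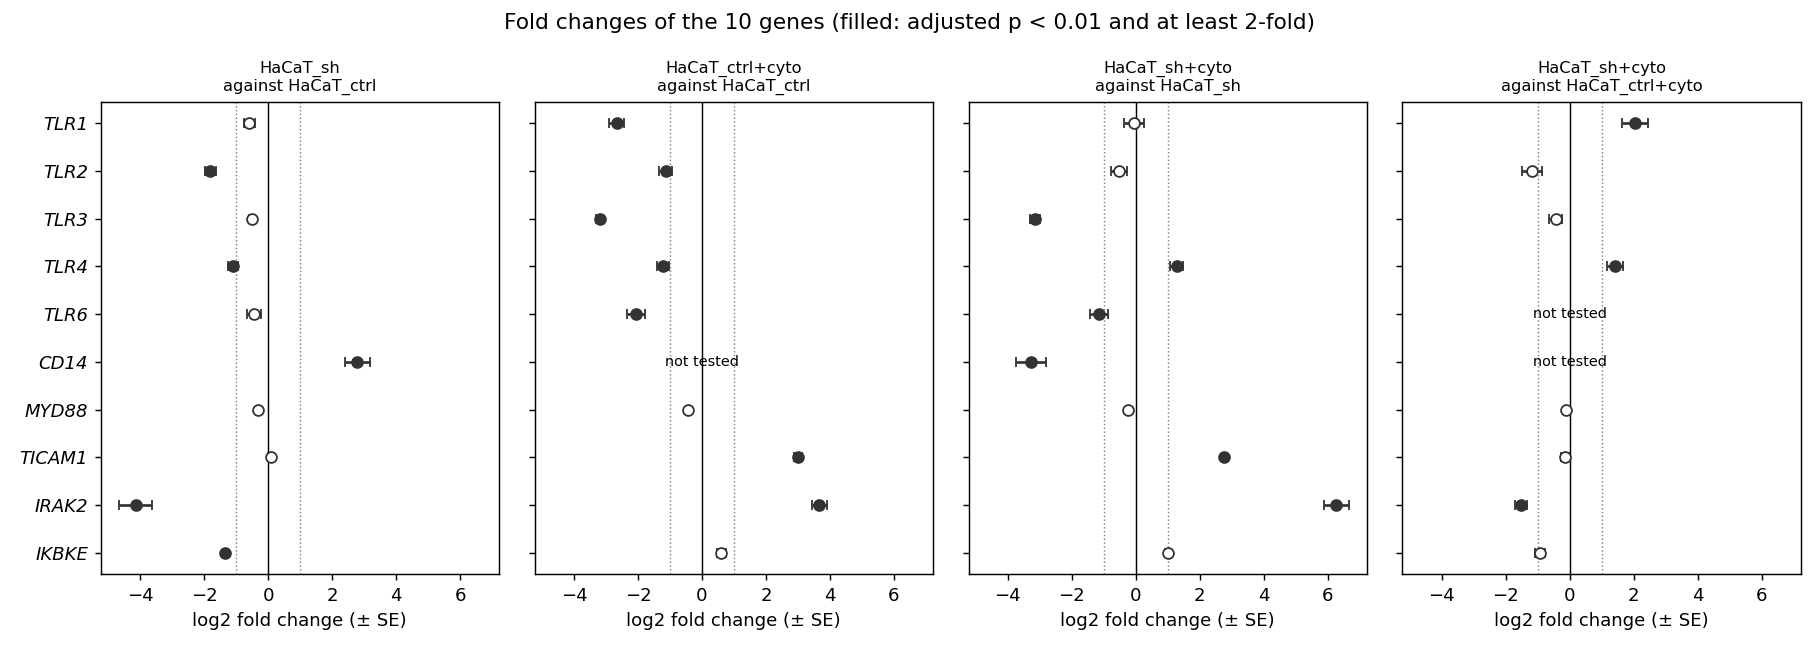
Log2 fold changes of the 10 genes in the 4 comparisons (points, with bars for the standard error from edgeR), filled where the adjusted p was below 0.01 and the change at least 2-fold, with dotted lines at 2-fold. TLR4 lay at -1.21 for the cytokine response of HaCaT_ctrl and at 1.27 for that of HaCaT_sh, and TICAM1 at 3.01 and 2.75.

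Of the adaptors, TICAM1 was called with cytokines and MYD88 was not. TICAM1, the adaptor of TLR3 (GRCh37, chr19:4815944-4831724, minus strand), rose with cytokines in both lines. It was at 24.8, 22.4 and 23.0 CPM in HaCaT_ctrl and at 221, 163 and 169 CPM in HaCaT_ctrl+cyto (log2 fold change 3.01, standard error 0.12, adjusted p = 1.23e-08). HaCaT_sh was at 23.8, 25.0 and 25.2 CPM and HaCaT_sh+cyto at 159, 155 and 181 CPM (log2 fold change 2.75, standard error 0.0744, adjusted p = 3.39e-10). All cytokine libraries lay far above all others, while the lines overlapped in both states. The log2 fold change between the lines was 0.08 at rest (standard error 0.0688, adjusted p = 0.319) and -0.16 under cytokines (standard error 0.12, adjusted p = 0.357). The difference between the responses was -0.24 (standard error 0.15, adjusted p = 0.297). TICAM1 and TLR3, adaptor and receptor of 1 route, thus moved in opposite directions in both lines.

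MYD88, the adaptor of the other receptors and of the IL-1 receptor family (GRCh37, chr3:38180043-38184515, plus strand), stayed within 2-fold in each comparison. It was at 94.7, 101 and 94.7 CPM in HaCaT_ctrl and at 72.9, 77.0 and 81.2 CPM in the libraries labelled HaCaT_sh. With cytokines it was at 68.3, 66.5 and 74.4 CPM in HaCaT_ctrl+cyto and at 60.9, 64.5 and 68.7 CPM in HaCaT_sh+cyto. The highest values were those of HaCaT_ctrl, which did not overlap with any other group. The log2 fold changes were -0.33 at rest (adjusted p = 6.01e-05), -0.44 with cytokines in HaCaT_ctrl (adjusted p = 1.47e-04) and -0.24 in HaCaT_sh (adjusted p = 0.00771), with standard errors of 0.0517 to 0.0685. Between the cytokine groups the log2 fold change was -0.11 (standard error 0.0829, adjusted p = 0.370).

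IRAK2, a kinase-like protein of the complex that MYD88 nucleates (GRCh37, chr3:10206603-10285429, plus strand), was lower in HaCaT_sh in both states and rose with cytokines in both lines. At rest it was at 1.32, 1.22 and 0.971 CPM in HaCaT_ctrl and at 0, 0.122 and 0.0592 CPM in the libraries labelled HaCaT_sh. The counts over the groups were 59 and 3, a ratio of 19.7 with a 95% counting interval of 6.43 to 98.4 (adjusted p = 6.80e-06). With cytokines it was at 18.4, 11.8 and 13.4 CPM in HaCaT_ctrl+cyto (log2 fold change 3.67, standard error 0.23, adjusted p = 2.06e-07). In HaCaT_sh+cyto it was at 4.99, 5.42 and 4.84 CPM, 213 against 3 counts, a ratio of 86.3 with a 95% counting interval of 29.1 to 422 (adjusted p = 9.47e-08). All cytokine libraries lay above all libraries at rest. IRAK2 entered the test at rest only through HaCaT_ctrl and that of the HaCaT_sh response only through HaCaT_sh+cyto, so that these groups had to be apart. Under cytokines the HaCaT_sh+cyto libraries lay below the HaCaT_ctrl+cyto libraries (log2 fold change -1.51, standard error 0.19, adjusted p = 7.28e-04), and 12 of 12 alternatives called this. The difference between the responses, 2.62 (standard error 0.68), was not called (adjusted p = 0.0151) and rests on the 3 counts of HaCaT_sh. It was called without HaCaT_ctrl+cyto 1 (adjusted p = 0.00253) and with no filter (adjusted p = 0.000788).

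IKBKE, the kinase that with TBK1 activates interferon regulatory factors (GRCh37, chr1:206643819-206670222, plus strand), was lower in the libraries labelled HaCaT_sh at rest. It was at 33.3, 35.4 and 33.4 CPM in HaCaT_ctrl and at 13.8, 13.0 and 13.1 CPM in HaCaT_sh, with no overlap (log2 fold change -1.35, standard error 0.0700, adjusted p = 7.26e-10). With cytokines it was at 64.5, 43.5 and 43.9 CPM in HaCaT_ctrl+cyto (log2 fold change 0.60, standard error 0.14, adjusted p = 0.00281), and at 29.7, 23.8 and 25.5 CPM in HaCaT_sh+cyto (log2 fold change 1.00, standard error 0.10, adjusted p = 4.59e-06). Neither difference was called, that of HaCaT_sh by a margin of less than 0.01 on the log2 scale. It was called by DESeq2 (1.01), with RLE scaling (1.01) and without HaCaT_sh 1 (1.03), HaCaT_sh+cyto 2 (1.06) or HaCaT_sh+cyto 3 (1.02). The cytokine groups did not overlap, and HaCaT_sh+cyto was lower (log2 fold change -0.94, standard error 0.16, adjusted p = 0.00327). That difference passed 2-fold with library size alone (-1.01) and without HaCaT_ctrl+cyto 2, HaCaT_ctrl+cyto 3 or HaCaT_sh+cyto 1 (-1.03 each). TBK1, its close relative, was at 42.6 ± 2.02 CPM in HaCaT_ctrl, 42.5 ± 3.09 in HaCaT_sh, 48.7 ± 2.50 in HaCaT_ctrl+cyto and 46.9 ± 1.81 in HaCaT_sh+cyto. IKBKE overlaps IKBKE-AS1 on the opposite strand, and it is not stated whether the counting used strand.

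**Figure D4:**
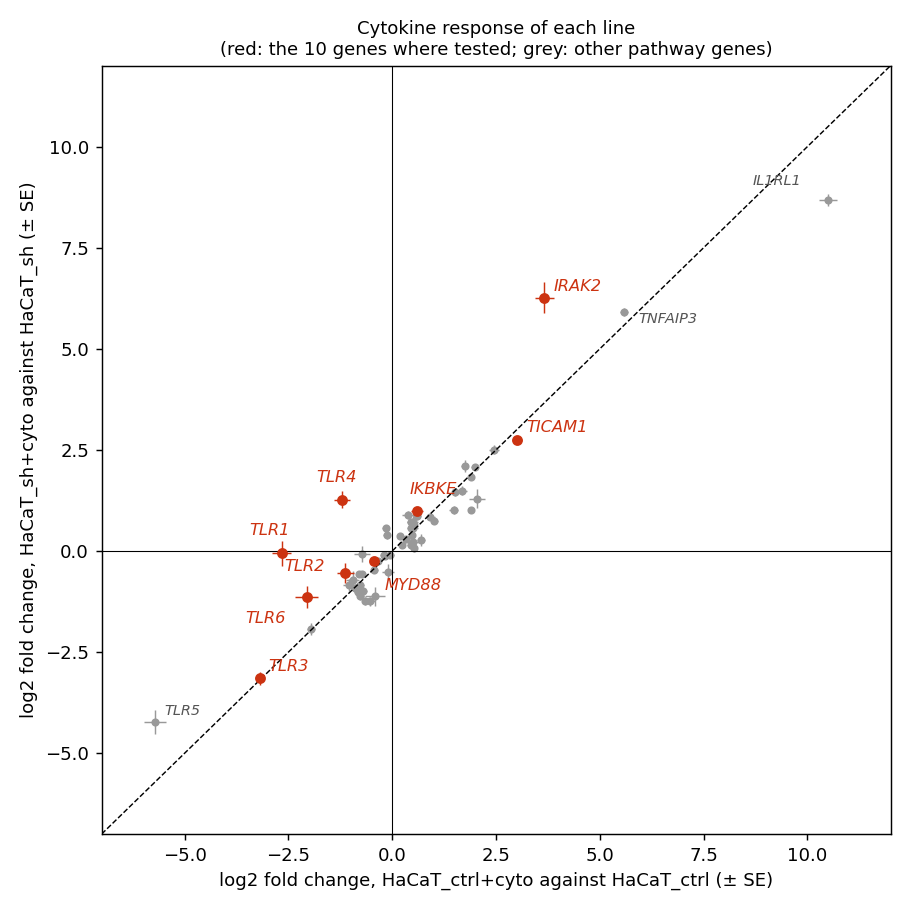
Log2 fold change with cytokines in HaCaT_ctrl (horizontal) and in HaCaT_sh (vertical), with bars for standard errors, for the 9 genes of the set tested in both (red) and other genes of the pathway (grey), with the dashed line marking equal responses. TLR4 (-1.21 and 1.27) and TLR1 (-2.66 and -0.06) stood above the line, and TLR3 (-3.20 and -3.15) close to it.

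A further 67 genes of the pathway and of related sensors, listed by role with earlier results of these data known, were counted in the same fits. At rest, 2 of 51 tested were higher in the libraries labelled HaCaT_sh and 0 lower by edgeR, with 13 higher and 20 lower at an unadjusted p under 0.05, and DESeq2 called 2 in all, beside the 3.80% higher and 5.07% lower of all genes. With cytokines, 14 of 53 were higher and 3 lower in HaCaT_ctrl, beside 14.7% and 21.1% of all genes, and 11 of 51 higher and 7 lower in HaCaT_sh, beside 14.9% and 21.0%. Between the cytokine groups 1 of 52 was higher, beside 2.50%. Their median log2 fold changes were 0.00, 0.38, 0.27 and -0.11 in that order. Of the other Toll-like receptors, the flagellin receptor TLR5 was at 14.5, 11.5 and 12.5 CPM in HaCaT_ctrl, 5.55, 7.997 and 5.81 CPM in HaCaT_sh, 0.131, 0.378 and 0.182 CPM in HaCaT_ctrl+cyto and 0.256, 0.246 and 0.491 CPM in HaCaT_sh+cyto. It fell with cytokines in both lines, with log2 fold changes of -5.72 (adjusted p = 2.55e-08) and -4.23 (adjusted p = 3.56e-07), larger than those of TLR3. TLR5 entered these tests only through the groups at rest, where it was high. It had 11 counts in HaCaT_ctrl+cyto and 14 in HaCaT_sh+cyto, so that the size of these changes is uncertain. TLR7, TLR8, TLR9 and TLR10, whose best known sites of expression are immune cells, had 1, 0, 2 and 11 counts over the 12 libraries. A count of 0 allows up to 3.

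The ubiquitin ligase and kinase group, 18 genes tested, gave 4 rises and 1 fall in HaCaT_ctrl, beside 14.7% and 21.1% of all genes, and 4 rises and 2 falls in HaCaT_sh, beside 14.9% and 21.0%. IRAK1, the kinase that IRAK4 phosphorylates, rose from 155 ± 9.44 to 434 ± 44.2 CPM in HaCaT_ctrl and from 179 ± 12.1 to 484 ± 33.1 CPM in HaCaT_sh (log2 fold changes 1.52 and 1.45). TRAF3, an adaptor of the TICAM1 route, rose in both lines (1.99 and 2.08), as did TAB3, a partner of the kinase TAK1 (1.91 and 1.02), and the ligase PELI1 (1.48 and 1.01). In HaCaT_sh, the call of TAB3 was lost without HaCaT_sh 1 (0.97), HaCaT_sh 2 (just under 1) or HaCaT_sh+cyto 3 (0.94), and that of PELI1 without HaCaT_sh 3 (0.99) or HaCaT_sh+cyto 3 (0.92). Both calls were also lost with library size alone (0.80 each) and, at values just under 1, with no filter. IRAK4 (-1.02) and the ubiquitin-conjugating enzyme variant UBE2V1 (-1.13) fell in HaCaT_sh. Their calls were lost without HaCaT_sh 3 (-0.94) or HaCaT_sh+cyto 1 (-0.93) for IRAK4 and without HaCaT_sh+cyto 1 (-0.92) for UBE2V1.

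PELI2, a ligase that binds IRAK proteins, was higher in the libraries labelled HaCaT_sh in both states. It was at 7.24, 7.08 and 7.50 CPM in HaCaT_ctrl and 24.5, 26.8 and 27.2 CPM in HaCaT_sh, and the lines differed by 1.85 on the log2 scale (adjusted p = 2.59e-10). With cytokines it was at 3.14, 3.65 and 3.58 CPM in HaCaT_ctrl+cyto and 14.5, 10.4 and 18.4 CPM in HaCaT_sh+cyto (a difference of 2.07, adjusted p = 3.31e-04). IRAK2 differed the other way between the lines in both states, but so few groups per state cannot test a relation between these genes. The fall of PELI2 with cytokines was called in HaCaT_ctrl (-1.04), though not without HaCaT_ctrl+cyto 1 (-0.98).

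Of 6 inhibitors tested, 2 rose and 0 fell in HaCaT_ctrl, beside 14.7% and 21.1% of all genes. In HaCaT_sh 2 rose and 1 fell, beside 14.9% and 21.0%. TNFAIP3, the NF-kB inhibitor A20, rose from 9.77 ± 0.257 to 457 ± 33.7 CPM in HaCaT_ctrl and from 6.98 ± 1.03 to 419.9 ± 4.37 CPM in HaCaT_sh (log2 fold changes 5.58 and 5.92). Its partner TNIP1 rose in both lines too (1.90 and 1.82), and SIGIRR, a decoy-like receptor, fell in HaCaT_sh (-1.11). Of 5 transcription factors, 1, RELA, was called higher in HaCaT_ctrl (1.02), beside the 14.7% of all genes, and 0 were called in HaCaT_sh. RELA lost that call without HaCaT_ctrl 3 (0.97) or HaCaT_ctrl+cyto 3 (0.94), with library size alone (0.80) and with all 12 libraries in 1 fit (just under 1).

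Over the 12 libraries, the genes whose log2 CPM followed TLR3 most closely among 13296 were AGR2, EMP2 and POF1B, with Pearson's r of 0.999, 0.996 and 0.996. Those closest to TLR2 were EIF4EBP2, DENND4A and CCDC90B, with r of 0.985, 0.978 and 0.976. The libraries share 4 group means, which set most of such a value, and CD14 was too low to be among the genes compared.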

How the data were processed

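RNA of HaCaT_ctrl and HaCaT_sh cells, with and without cytokines, was sequenced in 12 libraries. The authors trimmed reads with Cutadapt, mapped them with STAR to hg19 (GRCh37) with the Gencode annotation and deposited a table of whole-number counts per gene. How reads were counted, and whether by strand, is not given in the sources used here. A deposited table of CPM values was not used. Symbols were matched through the reference annotation and RefSeq synonyms, and that of IKBKE through an identifier in the study's supplement. 119 of 121 listed symbols were matched.

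Counts were tested in R 4.3.3 with edgeR 4.0.16 (TMM scaling, glmQLFit and glmQLFTest) over genes that reached 1 CPM in 50% or more of the libraries compared, and p-values were adjusted over all of these by Benjamini-Hochberg. DESeq2 1.42.0, RLE scaling, library size alone, no filter, a replicate block, all 12 libraries in 1 fit and each library left out were alternatives. The procedure was tested on simulated data. Python 3.11.15 was used for tables. All 10 genes are described. Of each other list, called genes are named, or the 4 with the smallest p where over 5 were called. For TLR2, TLR3 and CD14, the 3 genes most like them are named. Genes and lists were chosen with earlier results of these data known. Identity was computed on coding sequences (the longest open reading frame), a choice made after the files were seen in place of proteins.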

Additional observations from a re-analysis of the deposited data

Results flagged for a closer look

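The cytokine responses of the lines differed, by the test of the difference itself, for TLR1 (2.62 on the log2 scale, HaCaT_sh minus HaCaT_ctrl, adjusted p = 0.00103), for TLR4 (2.50, adjusted p = 9.44e-05) and for IL1RL1, the IL-33 receptor (-1.79, adjusted p = 0.00397). TLR1 fell in HaCaT_ctrl (-2.66) and was at -0.06 in the line labelled HaCaT_sh. TLR4 fell in HaCaT_ctrl (-1.21) and rose in HaCaT_sh (1.27). IL1RL1 rose in both, from 0.263, 0.813 and 0.701 to 746, 872 and 991 CPM in HaCaT_ctrl (log2 fold change 10.50) and from 1.74, 2.26 and 2.84 to 973, 993 and 824 CPM in HaCaT_sh (8.68). The cytokine groups overlapped for IL1RL1 while the groups at rest did not (log2 fold change 1.89 at rest, adjusted p = 9.51e-05). HaCaT_ctrl held 31 counts of IL1RL1, below 1 CPM in each library. IL1RL1 thus entered the test at rest only through HaCaT_sh and that of the HaCaT_ctrl response only through HaCaT_ctrl+cyto. Its difference between the responses was not called without HaCaT_ctrl 1 (-1.48), HaCaT_ctrl 3 (-1.92), HaCaT_sh 2 (-1.80) or HaCaT_sh 3 (-1.60). The differences of TLR1, TLR4 and IL1RL1 were computed with the labels of the libraries at rest, which IQGAP3 went against, and were not tested with other labels. The mean of TLR4 was 2.43 ± 0.248 CPM in HaCaT_sh and 2.19 ± 0.427 CPM in HaCaT_ctrl+cyto, and 5.16 ± 0.642 CPM in HaCaT_ctrl and 5.78 ± 1.55 CPM in HaCaT_sh+cyto, so that a fall or rise is seen only with the libraries paired as labelled. For IL1RL1, HaCaT_ctrl at 0.592 ± 0.291 CPM was the lower group at rest and HaCaT_sh+cyto at 930.2 ± 92.2 CPM the higher mean with cytokines. By these means alone, pairing HaCaT_ctrl with HaCaT_sh+cyto would turn the sign of its difference, and no such pairing was fitted. For TLR1, HaCaT_ctrl was at 3.29 ± 0.169 CPM, HaCaT_sh at 2.19 ± 0.285, HaCaT_ctrl+cyto at 0.502 ± 0.0956 and HaCaT_sh+cyto at 2.08 ± 1.05 CPM, and HaCaT_ctrl+cyto was below both groups at rest. Its log2 fold change between the lines was 2.04 under cytokines, where no library at rest enters, and -0.58 at rest. TLR4 also turned between the states (-1.09 at rest and 1.41 under cytokines). TLR2 (-1.80 and -1.19), IRAK2 (-4.14 and -1.51), IKBKE (-1.35 and -0.94) and PELI2 (1.85 and 2.07) kept their direction. Of these, TLR2 and IKBKE were not called under cytokines.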

How the results depend on the processing

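Between HaCaT_sh+cyto and HaCaT_ctrl+cyto, 2 of the 10 genes were called higher and 1 lower. With the replicate block 1 was higher. With library size alone, no filter or all 12 libraries in 1 fit, 2 were lower. Leaving out each library in turn gave 0 to 2 higher and 1 to 2 lower. Of the other pathway genes 1 was called there, 2 with library size alone, 4 with no filter and 2 with all 12 libraries in 1 fit. For the difference between the responses, no filter gave 1 of the 10 genes lower, where 0 had been, and leaving out each library gave 0 to 1 other pathway gene against 1. A pair of directions turned, both for values far from a call and only when a library was left out: TLR1 in HaCaT_sh+cyto against HaCaT_sh ran from -0.56 to 0.16, and the TLR3 difference between the responses from -0.0829 to 0.142. DESeq2 and RLE scaling left all 15 counts within 1.5 times. Library size alone shifted the median of all genes by -0.21 in both cytokine comparisons and reversed no gene of the set. The replicate numbers did not pair the libraries: same-numbered libraries had correlations of -0.135 to 0.197 between their deviations from the group means, and the block changed no other call. TLR1, TLR5, TLR6, CD14, LY96, IRAK2, AIM2 and, in HaCaT_ctrl at rest, IL1RL1 are limited by low counts.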

Other observations

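Cytosolic sensors of RNA and DNA and receptors that share MYD88 were counted apart. Of 12 sensor genes tested, 4 rose and 1 fell with cytokines in HaCaT_ctrl, beside 14.7% and 21.1% of all genes. Of 11 tested in HaCaT_sh, 3 rose and 2 fell, beside 14.9% and 21.0%. RIPK2, the kinase of the NOD receptors, rose from 13.1 ± 1.82 to 70.1 ± 8.77 CPM in HaCaT_ctrl and from 17.3 ± 0.920 to 97.2 ± 15.9 CPM in HaCaT_sh (log2 fold changes 2.45 and 2.50). IFIH1, which like TLR3 binds double-stranded RNA, rose in both lines (1.74 and 2.09), as did the DNA sensor CGAS (1.68 and 1.49). STING1, which acts downstream of CGAS, fell in both (-1.96 and -1.93). The DNA sensor AIM2 rose in HaCaT_ctrl (1.75), where it entered the test only through HaCaT_ctrl+cyto. It had 2 and 30 counts in HaCaT_sh and HaCaT_sh+cyto, too few for a test there. NOD1, a sensor of bacterial cell walls, fell in HaCaT_sh (-1.23) and had a log2 fold change of -0.65 in HaCaT_ctrl.

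Of 5 receptors tested that signal through MYD88, IL1RL1 and the IL-18 receptor chain IL18R1 rose in both lines, 2 of 5 beside the same 14.7% and 14.9%. IL18R1 was at 2.10, 2.09 and 2.05 CPM in HaCaT_ctrl and 6.60, 8.63 and 10.1 CPM in HaCaT_ctrl+cyto, and at 2.35, 2.32 and 1.72 CPM in HaCaT_sh and 5.50, 6.49 and 3.72 CPM in HaCaT_sh+cyto (log2 fold changes 2.05 and 1.30). IL1R1, the IL-1 receptor, fell in HaCaT_sh (-1.25, adjusted p = 1.62e-06) and had a log2 fold change of -0.52 in HaCaT_ctrl. IL1RL1 and IL18R1 overlap on 1 strand in the annotation used here.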
